A study of Mus musculus with 6 samples.

Results

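The 10 genes described here encode parts of the cardiac intercalated disc, the junction at which the ends of neighbouring cardiomyocytes meet. They are the connexin genes Gja1, Gja5 and Gjc1, the desmosome genes Dsp, Pkp2, Jup, Dsg2 and Dsc2, and the adherens junction genes Cdh2 and Ctnna3. They were taken by gene name from the deposited count table, where they are 10 of 54532 genes, and all 10 had enough counts to be among the 14774 genes tested. RNA was sequenced from the left ventricle of 3 HINT2 transgenic mice (TG, genotype HINT2CTG-Myh6Cre) and 3 non-transgenic mice (NTG, C57BL/6J), 1 library per heart. Every mouse had aortic banding (AB), a ligature that narrows the thoracic aorta and loads the left ventricle with pressure, and no unbanded heart was used here. AB was done in male mice aged 8 to 10 weeks and the hearts were taken 4 weeks later. In TG mice, tamoxifen given at 5 mg/kg daily for 7 days activates a Cre recombinase driven by Myh6 in cardiomyocytes, which removes a stop signal between a CAG promoter and a human HINT2 sequence. Whether the NTG mice of this experiment carried Cre or received tamoxifen is not stated in the sources used here, so effects of HINT2, Cre and tamoxifen cannot be told apart.

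Cardiomyocytes are coupled at the disc in 3 ways. Gap junction channels, made of connexins, pass current and small molecules from cell to cell. Desmosomes tie the intermediate filaments of neighbouring cells together through the cadherins desmoglein and desmocollin, the armadillo proteins plakoglobin and plakophilin, and desmoplakin. Adherens junctions tie the actin filaments together through N-cadherin and the catenins. Inherited defects of desmosomal genes are a known cause of arrhythmogenic cardiomyopathy, and altered connexin amount or position is a known feature of diseased, overloaded hearts.

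No junction gene was called different between the groups. In edgeR's quasi-likelihood test, a gene was called when its log2 fold change passed 0.5 in either direction with adjusted p below 0.05, which 0 of the 10 met, as did 0% of the whole table. Dsc2 was the 1 of the 10 with an unadjusted p under 0.05, and it was higher in TG hearts, as were 8.83% of all genes at that p. None of the 10 was lower at that p, against 9.76% of all genes. DESeq2 called 0 of the 10, beside 1.54% of all genes called higher and 2.4% called lower. The fitted level was lower in TG hearts for 6 genes (all 3 connexins, Dsp, Pkp2 and Cdh2) and higher for 4 (Jup, Dsg2, Dsc2 and Ctnna3). The log2 fold changes ran from −0.22 to 0.43 with a median of −0.087, and the median over all genes tested was −0.0081. In CPM (counts scaled to library size with TMM factors), the TG libraries all lay below the NTG libraries for 2 of the 10, Gja5 and Pkp2, where 12.3% of all genes showed this, and for none did they all lie above, where 11.2% of all genes did. These sets depended on the scale. In TPM (counts divided by gene length and scaled to the same total in each library), the TG libraries all lay below for 1 of the 10, Cdh2 (14.3% of all genes), and all above for 2, Dsc2 and Ctnna3 (5.64% of all genes), while Gja5 and Pkp2 overlapped. On that scale the means were lower in TG for 7 genes, Jup included, and the median log2 ratio of means over all genes tested was −0.19. With 3 libraries against 3, an exact two-sided permutation test of a single value cannot give a p below 0.1.

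Before the single genes, the libraries themselves are described. Depth was 14863568 to 17581220 counts for NTG and 14944465 to 17235802 for TG. Of these the 10 junction genes made up 0.197% to 0.269%. The library labelled NTG 1 stood apart from its group. It had 12 counts of mouse Hint2, the counterpart of the transgene, against 545 and 559 in the other NTG libraries and 793 to 859 in TG. Along the leading principal component (52.3% of the variance) NTG 1 lay at −5.08, nearer to TG 2 at −10.7 than to NTG 3 at 29.3 or NTG 2 at 55.7. Its label was kept, and values without it follow the account of the single genes. Mitochondrially encoded transcripts were 13.4% to 19.2% of each NTG library and 16.0% to 21.5% of each TG library.

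The summed CPM of 12 cardiomyocyte markers (with Myh6) was 29639 to 43701 in NTG and 44285 to 51477 in TG, without overlap between the groups, so every library held abundant cardiac muscle RNA. Taken singly, 11 were fitted higher in TG and 1 lower, Myh7 (log2 fold change −0.89), named after its values were seen. Only 2 of the 12 were higher in every TG library, where 11.2% of all genes were, and Myh6 itself overlapped. The summed CPM of 8 fibroblast markers (with Postn) was 4703 to 10835 in NTG and 2313 to 4011 in TG, and that of 5 erythroid genes (with Hbb-bs) was 1308 to 2242 and 761 to 906. The other lists overlapped between the groups. In NTG and TG, respectively, the sums were 2176 to 2468 and 2195 to 2391 for 9 endothelial markers (with Cdh5), 225 to 304 and 247 to 302 for 7 arterial endothelial markers (with Sema3g), and 517 to 1043 and 422 to 591 for 8 macrophage markers (with C1qa). They were 1439 to 1827 and 1616 to 1923 for 8 smooth muscle and pericyte markers (with Rgs5), and 34.0 to 45.8 and 25.2 to 40.7 for 9 mesothelial and epithelial markers (with Wt1). They were 71.8 to 155 and 47.7 to 248 for 7 atrial markers and 53.3 to 80.7 and 61.0 to 73.3 for 8 conduction system markers (with Irx3). Dkk3 had the highest mean CPM of the atrial list and a log2 fold change of −0.75, while the 5 other atrial markers tested had 1.19 to 1.96. The sum of the smooth muscle and pericyte list was mostly Rgs5 (log2 fold change 0.042). Of this list, 5 genes were fitted higher in TG and 3 lower, here named after their values were seen. Myh11, Acta2 and Cnn1 were higher in every TG library than in any NTG library, where 11.2% of all genes were. Their log2 fold changes were 0.70, 0.42 and 0.75, and DESeq2 called Myh11 and Cnn1, where it called 1.54% of all genes higher. Those fitted lower were Tagln (−0.61), Pdgfrb (−0.23) and Kcnj8 (−0.025). No marker was at 0 in all 6 libraries. In such bulk tissue, fewer cells of a type and less RNA per cell cannot be told apart. The part of these shifts in the values of the junction genes was not tested.

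**Figure D1:**
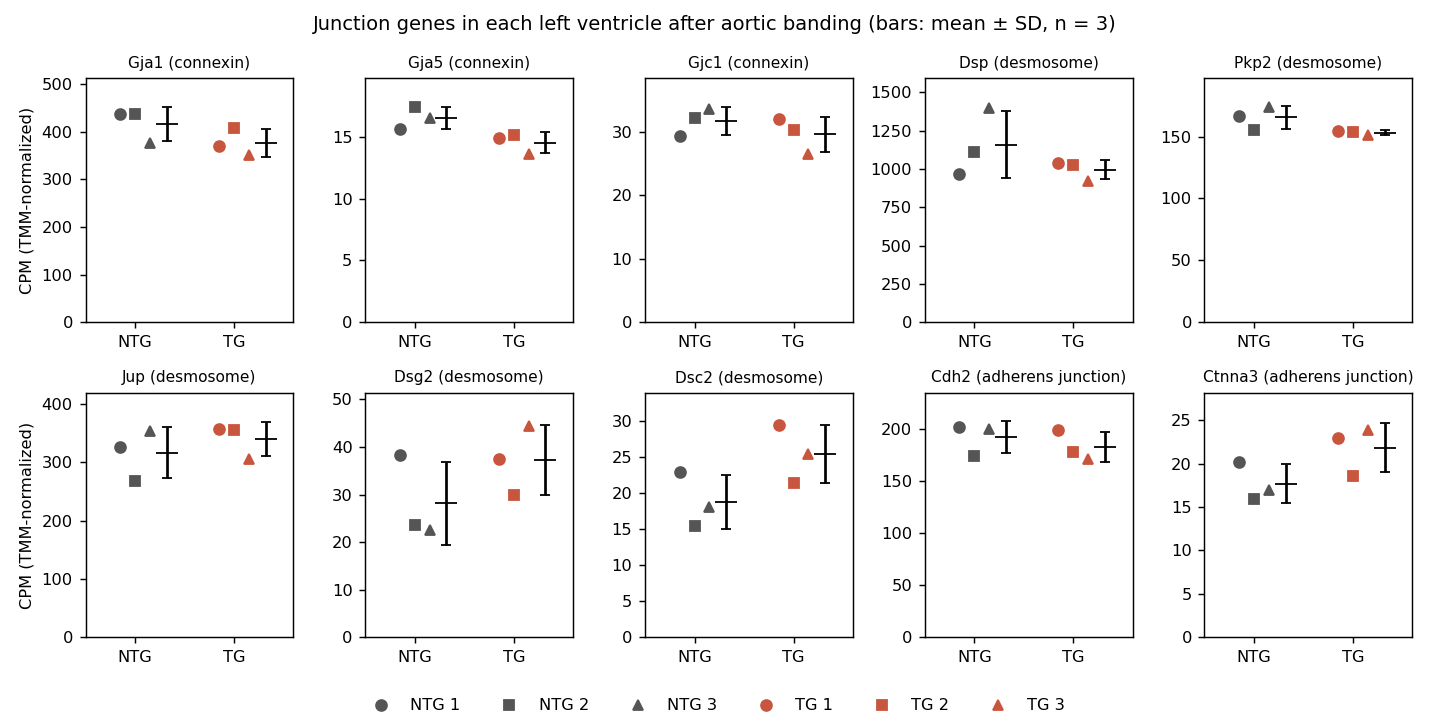
TMM-normalized CPM (y axis, from 0) of each junction gene in each library, NTG in grey and TG in red, with the symbol giving the library number and bars giving mean ± SD (n = 3). Gja5 and Pkp2 are the genes whose groups do not overlap, and for Dsg2 the library NTG 1, at 38.2 CPM, lies among the TG libraries.

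Levels can be compared between genes only per length, for which TPM were computed from the counts and the gene lengths of the table. These lengths are the merged exon bases of all annotated transcripts of a gene, for Gja1 10257 bases from 8 transcripts. Where the transcripts made are shorter, TPM understates the level, so order and shares between genes hold only for these lengths. On this scale Dsp had the highest level, with 207.6 to 383 TPM over the 6 libraries, and did not overlap with any other member. Next came Jup (103 to 146 TPM), Gja1 (74.4 to 117), Pkp2 (61.1 to 85.9) and Cdh2 (46.0 to 65.6), each overlapping with its neighbour in this order. A gap separated these from the lower group of Gjc1 (11.5 to 17.8 TPM), Dsc2 (8.03 to 11.9), Dsg2 (7.24 to 11.7), Gja5 (5.12 to 8.29) and Ctnna3 (6.03 to 7.16), whose neighbours also overlapped. Thus the cadherins of the desmosome, Dsg2 and Dsc2, were far less abundant as transcripts than the plaque proteins Dsp, Jup and Pkp2, while in the adherens junction the cadherin Cdh2 was well above Ctnna3.

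**Figure D2:**
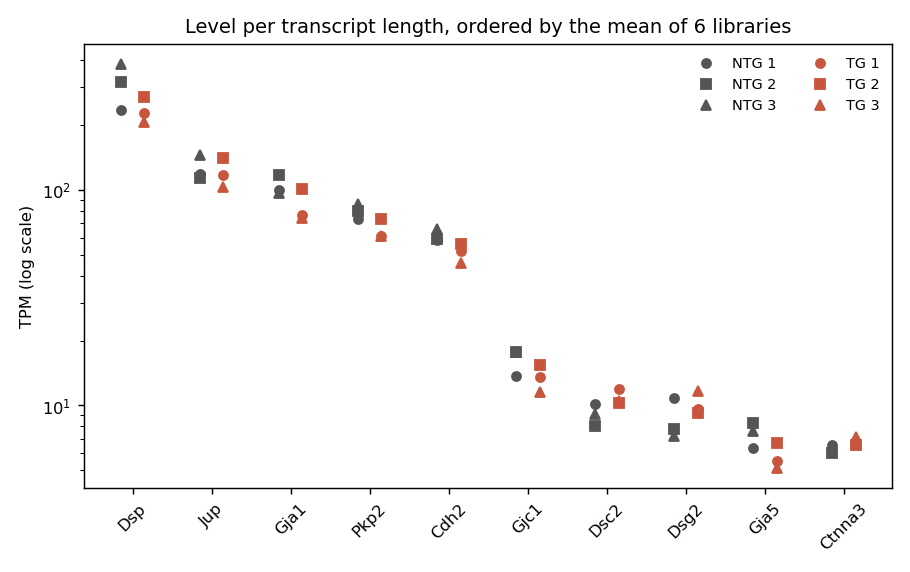
TPM (y axis, log scale) of each junction gene in the 6 libraries, ordered by the mean over all libraries, NTG in grey and TG in red. Dsp stands highest at 207.6 to 383 TPM, and a gap lies between Cdh2, at 46.0 TPM or above, and Gjc1, at 17.8 TPM or below.

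Among the connexins, Gja1 encodes connexin 43, the main gap junction protein of the working ventricle. Gja1 (ENSMUSG00000050953) spans bases 56377330 to 56402513 of chromosome 10 (plus strand, GRCm38). Its levels were 436, 437 and 376 CPM in NTG 1, 2 and 3, and 369, 407 and 352 CPM in TG 1, 2 and 3. TG 2 lay above NTG 3, so the groups overlapped, with means of 376 ± 28.4 CPM in TG and 416 ± 35.1 CPM in NTG (SD, n = 3). The log2 fold change was −0.15 (95% interval −0.43 to 0.13, adjusted p = 0.531, edgeR), an interval that includes 0. With an offset for gene length in the fit it was −0.074.

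Gja5 encodes connexin 40, known from atrial myocytes, the conduction system and arterial endothelium. Gja5 (ENSMUSG00000057123) spans bases 96904693 to 97077416 of chromosome 3 (plus strand, GRCm38). Its levels were 15.6, 17.4 and 16.5 CPM in the NTG libraries and 14.9, 15.1 and 13.6 CPM in the TG libraries. In CPM each TG library lay below each NTG library, with the highest TG value close to the lowest NTG value, and in TPM TG 2 lay above NTG 1. The log2 fold change was −0.19 (95% interval −0.45 to 0.077, adjusted p = 0.399, edgeR). Gja5 shares 165 exonic bases with Gpr89 on the opposite strand, which had 1499 counts over the 6 libraries, and without a stated strand setting the reads of the pair cannot be told apart. The libraries also differed in genes of atrial myocytes, here named after their values were seen. Myl7, an atrial myosin light chain, had 286, 3 and 0 counts in NTG 1, 2 and 3 and 22, 135 and 1044 in TG 1, 2 and 3, so NTG 1 and TG 3 stood highest. Sln, which encodes the atrial calcium pump regulator sarcolipin, had 122, 1 and 1 counts in NTG and 4, 72 and 401 in TG. Their part in the level of Gja5, which was lowest in TG 3, was not tested.

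Gjc1 encodes connexin 45, a connexin of the conduction system and of the early heart. Gjc1 (ENSMUSG00000034520) spans bases 102799579 to 102819700 of chromosome 11 (minus strand, GRCm38). Its levels were 29.2, 32.2 and 33.6 CPM in NTG and 31.9, 30.2 and 26.5 CPM in TG, and the groups overlapped. The log2 fold change was −0.10 (95% interval −0.35 to 0.15, adjusted p = 0.639, edgeR). It was −0.030 without TG 3 and −0.16 without TG 1.

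Relative to each other, the 3 member connexins had nearly the same shares in both groups. Other connexins are left out of these shares. Gja4 had a mean of 30.3 TPM in TG and 42.7 in NTG, above Gjc1, and Gja3 had 9.30 and 7.41. Gja1 made up 81.3% ± 1.10 of the summed TPM of the 3 connexin genes in TG and 81.4% ± 2.02 in NTG (SD, n = 3). Gjc1 made up 13.1% ± 0.946 and 12.8% ± 1.58, and Gja5 5.61% ± 0.170 and 5.79% ± 0.451. Of 20 connexin genes in the table, 14 had too few counts to be tested, of which 6 had 0 counts in every library, and the highest single count among them was 28. For Gja1, the genes with the most similar pattern of log2 CPM over the 6 libraries were Zfp146 (Pearson's r = 0.993), Tmem102 (0.986), Senp2 (0.985), Thoc2 (0.984) and Dctn4 (0.980). With 6 points, 121 of 14773 genes had an r above 0.9, and all values of a library share its depth and scaling.

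The 250 bases before the RefSeq transcription start are shown for all 5 members found in the RefSeq table, to set the promoter DNA of genes with high and low levels side by side. All are on GRCm38.p6. Gja1 lies at chr10:56377050-56377299 (plus strand), Gja5 at chr3:97032152-97032401 (plus strand), Dsp at chr13:38151044-38151293 (plus strand), Jup at chr11:100397791-100398040 (minus strand) and Ctnna3, the first of its 3 starts, at chr10:63429848-63430097 (plus strand). Capitals mark matches, on either strand, to the GATA motif (GATAA) or the Sp1 GC box (GGGCGG). No match overlaps another.
Gja1: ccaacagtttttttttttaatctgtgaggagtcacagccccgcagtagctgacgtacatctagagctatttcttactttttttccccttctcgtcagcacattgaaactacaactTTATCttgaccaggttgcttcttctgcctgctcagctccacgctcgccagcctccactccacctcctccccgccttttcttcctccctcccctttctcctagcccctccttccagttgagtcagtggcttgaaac
Gja5: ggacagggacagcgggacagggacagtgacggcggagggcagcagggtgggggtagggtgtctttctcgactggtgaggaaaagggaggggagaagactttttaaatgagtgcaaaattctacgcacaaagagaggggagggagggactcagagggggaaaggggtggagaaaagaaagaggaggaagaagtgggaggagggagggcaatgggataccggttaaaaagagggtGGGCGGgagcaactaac
Dsp: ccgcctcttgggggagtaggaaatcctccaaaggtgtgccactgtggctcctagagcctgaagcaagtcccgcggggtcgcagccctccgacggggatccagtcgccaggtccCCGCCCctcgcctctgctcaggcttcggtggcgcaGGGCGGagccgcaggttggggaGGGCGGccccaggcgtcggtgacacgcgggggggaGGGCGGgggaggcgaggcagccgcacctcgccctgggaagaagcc
Jup: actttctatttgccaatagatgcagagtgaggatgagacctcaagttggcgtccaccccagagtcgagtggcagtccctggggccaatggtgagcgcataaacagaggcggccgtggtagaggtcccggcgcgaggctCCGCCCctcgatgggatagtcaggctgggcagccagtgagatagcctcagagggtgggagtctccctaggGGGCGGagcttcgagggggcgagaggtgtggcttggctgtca
Ctnna3: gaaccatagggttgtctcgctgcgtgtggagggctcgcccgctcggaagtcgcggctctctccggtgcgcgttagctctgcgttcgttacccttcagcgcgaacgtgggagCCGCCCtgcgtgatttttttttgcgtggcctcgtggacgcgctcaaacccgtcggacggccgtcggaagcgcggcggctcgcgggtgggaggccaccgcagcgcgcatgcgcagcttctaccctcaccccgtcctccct

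The window of Dsp, the member with the highest level, held 4 GC boxes and was 72.4% G or C, and that of Jup held 2 GC boxes at 62.0%. The window of Gja1 held 1 GATA match and no GC box at 50.0% G or C, and that of Gja5 held 1 GC box at 56.4%. Ctnna3, the member with the lowest mean TPM, held 1 GC box at 67.6% G or C in the window shown. Its other windows held an AGGTCA match at 44.8% and a GATA and a TATA match at 45.6% G or C. Over 32851 such windows of the same length, the median was 52.4% G or C, 32.7% held a GC box and 22.6% held the GATA letters. The motifs of MEF2 (in 3.2% of all windows), NKX2-5 (TNAAGTG, 10.1%), T-box factors (GGTGTGA, 3.33%) and nuclear receptors (AGGTCA, 14%) and the TATA box (TATAAA, 12.4%) had no match in the 5 windows shown, which says only that these letters are absent there.

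Among the plaque genes of the desmosome, Dsp encodes desmoplakin, which anchors the intermediate filaments. Dsp (ENSMUSG00000054889) spans bases 38151294 to 38198577 of chromosome 13 (plus strand, GRCm38). Its levels were 970, 1112 and 1397 CPM in NTG 1, 2 and 3, and 1037, 1027 and 924 CPM in the TG libraries. NTG 2 and NTG 3 were highest, NTG 1 lay among the TG libraries, and the spread was wider in NTG (1160 ± 218 CPM) than in TG (996 ± 62.2 CPM, SD, n = 3 each). The log2 fold change was −0.22 (95% interval −0.60 to 0.16, adjusted p = 0.487, edgeR). It was −0.065 without NTG 3 and −0.33 without NTG 1, so its size rested on single NTG libraries.

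Pkp2 encodes plakophilin 2, an armadillo protein that recruits desmoplakin to the plaque. Pkp2 (ENSMUSG00000041957) spans bases 16213318 to 16272712 of chromosome 16 (plus strand, GRCm38). Its levels were 167, 156 and 174 CPM in NTG and 155, 154 and 151 CPM in TG. In CPM each TG library lay below each NTG library, by a narrow margin between TG 1 and NTG 2, and in TPM TG 2 overlapped with NTG 1. The log2 fold change was −0.11 (95% interval −0.32 to 0.095, adjusted p = 0.517, edgeR).

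Jup encodes plakoglobin, which serves both desmosomes and adherens junctions. Jup (ENSMUSG00000001552) spans bases 100368958 to 100397763 of chromosome 11 (minus strand, GRCm38). Its levels were 327, 268 and 354 CPM in NTG and 357, 356 and 306 CPM in TG. Only NTG 2 lay below all TG libraries, and the groups overlapped. The log2 fold change was 0.10 (95% interval −0.21 to 0.42, adjusted p = 0.710, edgeR), and it was −0.0048 without NTG 2.

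Among the cadherins of the desmosome, Dsg2 encodes desmoglein 2, the desmoglein of cardiomyocytes. Dsg2 (ENSMUSG00000044393) spans bases 20558074 to 20604521 of chromosome 18 (plus strand, GRCm38). Its levels were 38.2, 23.5 and 22.6 CPM in NTG 1, 2 and 3, and 37.5, 29.9 and 44.4 CPM in TG 1, 2 and 3. NTG 2 and NTG 3 lay below all TG libraries, while NTG 1 lay above TG 1 and TG 2. The fitted fold was 1.33, a log2 fold change of 0.41 (95% interval −0.14 to 0.96, adjusted p = 0.377, edgeR). Without TG 3 the log2 fold change was 0.26.

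Dsc2 encodes desmocollin 2, the partner cadherin of desmoglein 2. Dsc2 (ENSMUSG00000024331) spans bases 20030633 to 20059554 of chromosome 18 (minus strand, GRCm38). Its levels were 22.9, 15.5 and 18.1 CPM in NTG and 29.5, 21.4 and 25.4 CPM in TG. NTG 1 lay above TG 2, and every other NTG library lay below every TG library, with means of 25.4 ± 4.07 CPM in TG and 18.8 ± 3.76 CPM in NTG (SD, n = 3). The fitted fold was 1.35, a log2 fold change of 0.43 (95% interval 0.028 to 0.84, unadjusted p = 0.0390, adjusted p = 0.246, edgeR). The unadjusted p was above 0.05 without NTG 2, NTG 3, TG 1 or TG 3, with values of 0.108, 0.105, 0.146 and 0.0794.

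Dsg2 and Dsc2 were the only genes of their families with enough counts to be tested. Of 6 desmoglein genes in the table, the 5 others had no more than 3 counts in any library. The 2 other desmocollin genes had 0 counts in every library. Of 4 plakophilin genes, Pkp2 and Pkp4 were tested. As a share of the summed TPM of the 5 desmosome genes, Dsc2 made up 2.49% ± 0.388 in TG and 1.75% ± 0.453 in NTG, and Dsg2 2.34% ± 0.574 and 1.68% ± 0.658 (SD, n = 3). Dsp made up 53.2% ± 0.511 and 57.8% ± 4.58, Jup 27.2% ± 0.902 and 23.8% ± 2.48, and Pkp2 14.8% ± 0.653 and 15% ± 1.34.

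**Figure D3:**
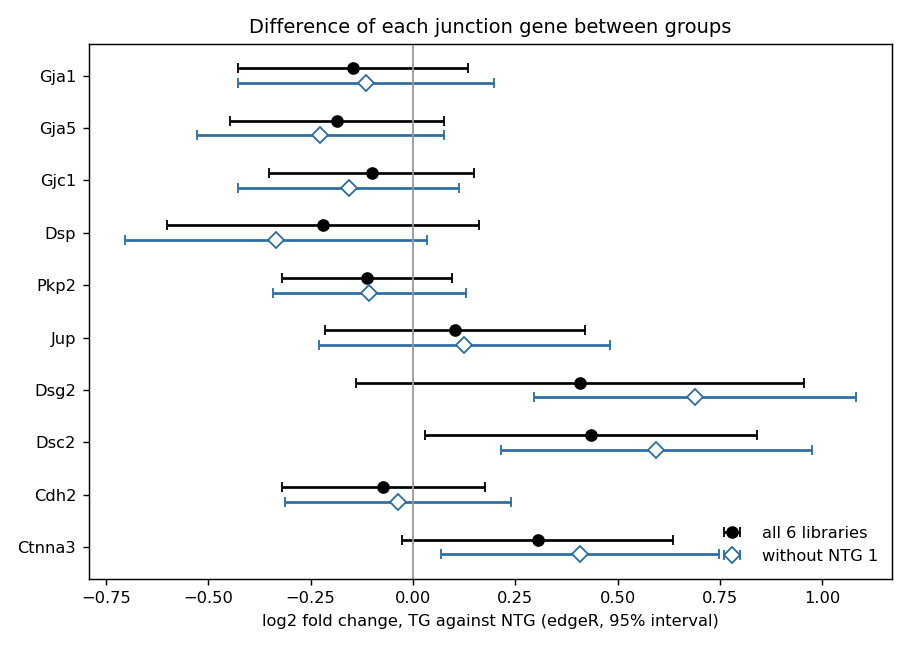
log2 fold change of TG against NTG (x axis) for each junction gene, with 95% intervals from edgeR, for all 6 libraries (black circles) and without NTG 1 (blue diamonds). With all libraries only the interval of Dsc2, 0.028 to 0.84, leaves out 0, while without NTG 1 those of Dsg2, Dsc2 and Ctnna3 do.

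In the adherens junction, Cdh2 encodes N-cadherin, which holds the membranes of the disc together. Cdh2 (ENSMUSG00000024304) spans bases 16588877 to 16809246 of chromosome 18 (minus strand, GRCm38). Its levels were 201, 174 and 199.6 CPM in NTG and 199, 177 and 171 CPM in TG. The groups overlapped in CPM, but in TPM the values were 58.4, 59.0 and 65.6 in NTG and 52.2, 55.9 and 46.0 in TG, without overlap. Its log2 fold change was −0.072 (95% interval −0.32 to 0.18, adjusted p = 0.740, edgeR). It was −0.029 without TG 3, −0.14 without TG 1 and −0.010 with the offset for gene length.

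Ctnna3 encodes alpha-T-catenin, a catenin of heart and testis that links the cadherin complex to actin and binds plakophilin 2. Ctnna3 (ENSMUSG00000060843) spans bases 63430098 to 65003667 of chromosome 10 (plus strand, GRCm38). Its levels were 20.2, 15.9 and 16.9 CPM in NTG and 23, 18.6 and 23.9 CPM in TG. NTG 1 lay above TG 2, and every other NTG library lay below every TG library. The fitted fold was 1.24, a log2 fold change of 0.30 (95% interval −0.026 to 0.64, adjusted p = 0.296, edgeR). Ctnna3 made up 11.8% ± 1.52 of the summed TPM of the 2 adherens junction genes in TG and 9.32% ± 0.711 in NTG (SD, n = 3), with Cdh2 as the rest.

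Dsg2, Dsc2 and Ctnna3 had the same libraries at the bottom of their order. NTG 2 and NTG 3 were the lowest for each of them, TG 2 came next, and NTG 1, TG 1 and TG 3 were highest. The same 3 libraries, NTG 2, NTG 3 and TG 2, had the smallest shares of mitochondrial counts (13.4%, 14.3% and 16.0%), and NTG 2 and NTG 3 had the smallest cardiomyocyte marker sums (29639 and 39173 CPM). The part of these in the levels of the 3 genes was not tested. For Gja5, NTG 2 and NTG 3 were instead the highest and TG 3 the lowest.

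**Figure D4:**
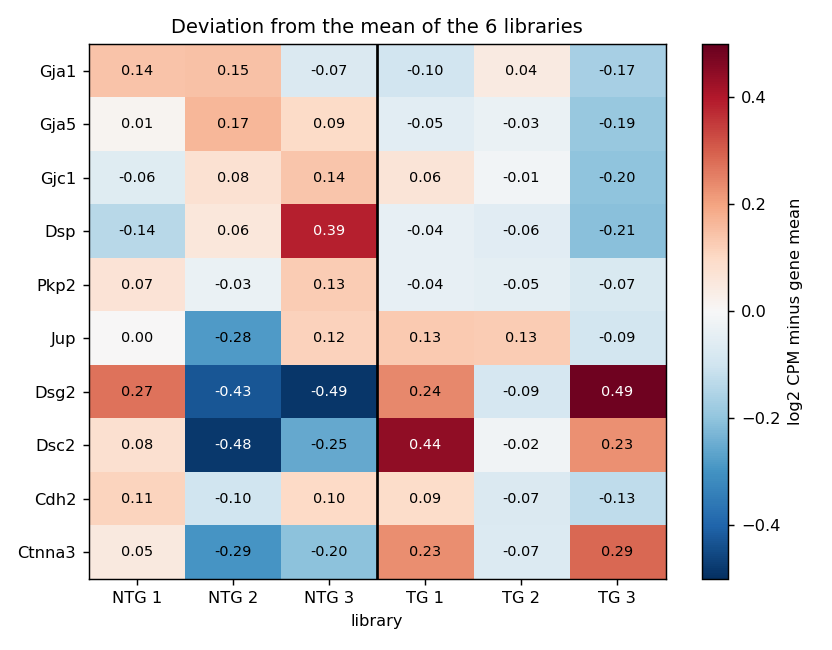
Deviation of log2 CPM from the mean of the 6 libraries (colour and printed value) for each junction gene (rows) in each library (columns, NTG left of the line and TG right). Dsg2 runs from −0.49 in NTG 3 to 0.49 in TG 3, while Pkp2 stays between −0.075 and 0.13.

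NTG 1 lay within the range of the TG libraries for 6 of the 10 genes, namely Gjc1, Dsp, Jup, Dsg2, Dsc2 and Ctnna3. Set against NTG 2 and NTG 3 alone, the TG libraries were all higher for 3 genes (Dsg2, Dsc2 and Ctnna3), where 23.2% of all genes showed this. They were all lower for 4 (Gja5, Gjc1, Dsp and Pkp2), where 23.5% did. Without NTG 1, edgeR gave log2 fold changes of 0.69 for Dsg2 (95% interval 0.30 to 1.08, adjusted p = 0.0550), 0.59 for Dsc2 (0.22 to 0.97, adjusted p = 0.0675) and 0.41 for Ctnna3 (0.068 to 0.75, adjusted p = 0.125). For the 7 others it ran from −0.33 for Dsp to 0.13 for Jup, with −0.16 for Gjc1 and −0.037 for Cdh2. Dsg2, Dsc2 and Ctnna3 had an unadjusted p under 0.05 and were higher, where 13.7% of all genes were. DESeq2 without NTG 1, a fit chosen after seeing the data, called 2 of the 10, Dsg2 (adjusted p = 0.0115) and Dsc2 (adjusted p = 0.0326), where it called 5.92% of all genes higher. With all 6 libraries DESeq2 gave these genes adjusted p values of 0.373 and 0.224, so both calls needed NTG 1 to be left out.

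Scaled to the cardiomyocyte marker sum of the same library in place of the library size, the mean was lower in TG for 8 of the 10 genes, and that sum was itself higher by 0.37 on the log2 scale. Gja1 measured 9.97, 14.7 and 9.59 CPM per 1000 CPM of markers in NTG and 7.17, 9.20 and 7.12 in TG. The groups did not overlap for 4 of the 10, Gja1, Gja5, Pkp2 and Cdh2, all lower in TG, where 33% of all genes were lower without overlap on this scale. Dsg2 measured 0.767 ± 0.118 in TG and 0.749 ± 0.154 in NTG, and Dsc2 0.524 ± 0.0460 and 0.503 ± 0.0347 (SD, n = 3), so for both the groups overlapped and the means were close.

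A list of 76 other genes of the disc and of the same families was described in the same way, of which 47 had enough counts to be tested. edgeR called 0 of the 47. At an unadjusted p under 0.05, 3 were higher and 7 lower in TG hearts, beside 8.83% and 9.76% of all genes. DESeq2 called 0 higher and 3 lower, beside 1.54% and 2.4% of all genes. Their median log2 fold change was 0.011. Without NTG 1, 6 were higher and 13 lower of 49 tested at that p, beside 13.7% and 13.3% of all genes. Both the 13 and the 49 include Gjb5, which is described below and is no evidence of a lower level in TG. Of the genes also tested with all 6 libraries, edgeR then called 1 higher (Cobll1) and 2 lower (Panx1 and Plekha7), beside 2.67% and 2.85% of all genes. Gjb5, named after its values were seen, also met the call rule as lower. With 4 to 6 counts in TG, it passed the low-count filter only through NTG 2 and NTG 3, where it was high. It is therefore left out of the calls just given.

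Of the 5 other connexins and pannexins tested, Panx1, which forms membrane channels that release ATP, had 13.3, 29.1 and 24.5 CPM in NTG and 7.64, 13.8 and 7.27 CPM in TG. Its log2 fold change was −1.22 (adjusted p = 0.203 with edgeR and 0.0182 with DESeq2), and TG 2 overlapped with NTG 1. Without NTG 1 it was −1.48 (adjusted p = 0.0377, edgeR). Gja3, a connexin known from the lens, had a log2 fold change of 0.50 (adjusted p = 0.232, edgeR). Gja4, the connexin of arterial endothelium, had one of −0.33 (adjusted p = 0.457, edgeR).

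Of the 4 other desmosome genes tested, Des, which encodes the muscle intermediate filament desmin that desmosomes hold, measured 2555, 3852 and 3948 CPM in NTG and 2493, 2626 and 2127 CPM in TG, where TG 2 lay above NTG 1. Its log2 fold change was −0.52 (adjusted p = 0.241, edgeR), and −0.69 without NTG 1 (adjusted p = 0.0541, edgeR). Ppl, which encodes the plaque protein periplakin, had 1.0 (adjusted p = 0.279, edgeR), with 7.27 CPM in TG 3 and 1.70 to 2.95 CPM in the other libraries. Perp, which encodes a membrane protein of desmosomes, had −0.16 (adjusted p = 0.471, edgeR).

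Of the 17 catenins, cadherins and linkers tested, 1 was higher and 4 were lower at an unadjusted p under 0.05, where 8.83% and 9.76% of all genes were. Cdh11, a cadherin of mesenchymal cells, measured 18.7, 22.1 and 15.3 CPM in NTG and 10.4, 13.2 and 11.5 CPM in TG, and the groups did not overlap (log2 fold change −0.67, adjusted p = 0.196 with edgeR and 0.0326 with DESeq2). The fibroblast marker sum was likewise lower in every TG library, and its part was not tested. Plekha7, an adherens junction protein, had a log2 fold change of −1.24 (adjusted p = 0.196 with edgeR and 0.0210 with DESeq2), from 4.77 to 10.9 CPM in NTG and 2.84 to 3.60 CPM in TG. Without NTG 1 it was −1.47 (adjusted p = 0.0313, edgeR). Arvcf, a p120-catenin relative, was the gene higher at that p, with 17.8 to 22.9 CPM in NTG, 27.4 to 32.4 CPM in TG and a log2 fold change of 0.48 (adjusted p = 0.196, edgeR). The other 2 lower at that p, Nectin3 and Cdh13, had −0.48 and −0.35 and are named after their values were seen. Cdh5, the cadherin of endothelium, had 0.033, and the catenin partners of N-cadherin, Ctnnb1 and Ctnna1, chosen after their values were seen, had −0.039 and 0.024.

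Of the 21 scaffolds and membrane partners tested, 1 was higher and 1 lower at that p, where 8.83% and 9.76% of all genes were. Cobll1 had 49.3 to 69.8 CPM in NTG and 73.1 to 89.2 CPM in TG, and the groups did not overlap (log2 fold change 0.44, adjusted p = 0.207, edgeR). Without NTG 1 it was 0.58 (adjusted p = 0.0395, edgeR). Xirp2, an actin-binding protein of the disc, measured 1883, 2897 and 2860 CPM in NTG and 1094, 2100 and 1118 CPM in TG, where TG 2 lay above NTG 1 (log2 fold change −0.83, adjusted p = 0.221, edgeR). Without NTG 1 it was −1.01 (adjusted p = 0.0826, edgeR). Scarb2, which encodes a lysosomal membrane protein, had −0.23 (adjusted p = 0.275, edgeR).

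**Figure D5:**
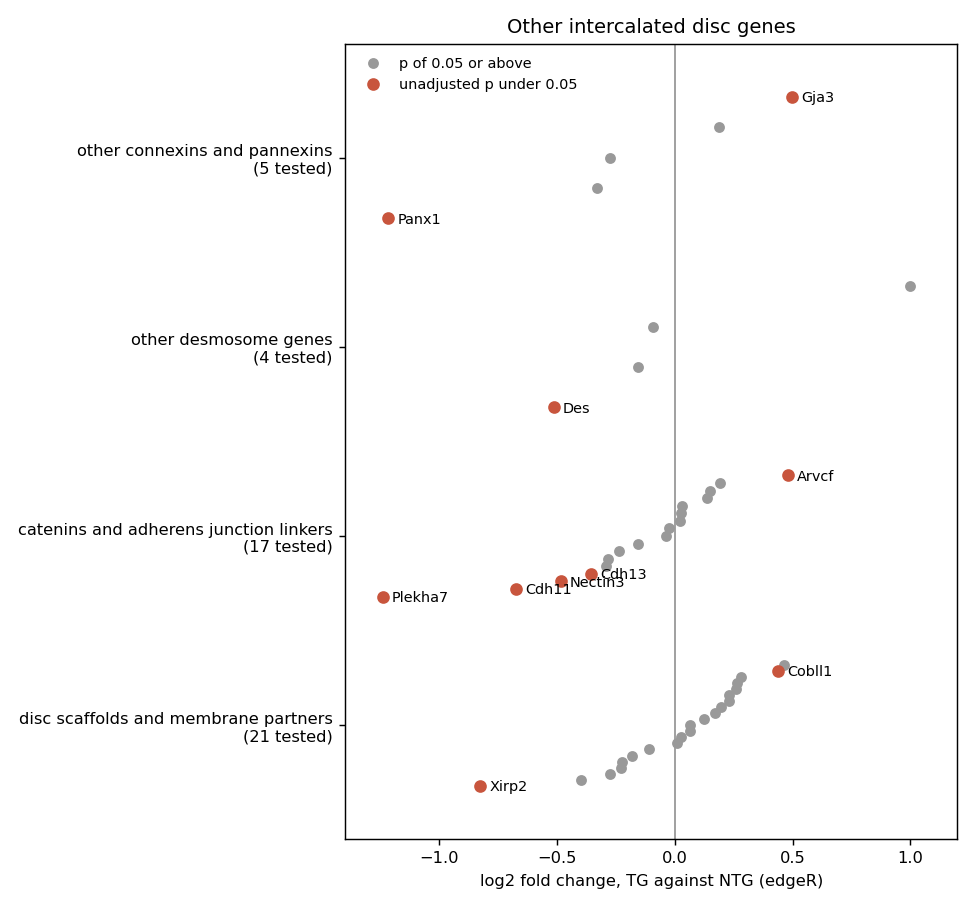
log2 fold change of TG against NTG (x axis, edgeR) for the 47 tested genes of the wider disc list, in 4 groups (y axis), each point 1 gene and red points with names having an unadjusted p under 0.05. The points run from −1.24 for Plekha7 to 1.0 for Ppl, and 10 of them are red.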

How the data were processed

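Poly-A selected RNA from 6 left ventricles was sequenced. After read cleaning and mapping, the authors ran StringTie (v1.3.3b) and counted reads per gene with featureCounts (v1.5.0-p3). The deposited values are these raw counts, with 1 column per heart. The processing notes name GRCh38, a human build, but the identifiers are of mouse, and 98.3% of those shared with GENCODE M21 (GRCm38) have identical coordinates there. The strand setting is not given in the sources used here. No pair of libraries agreed within sampling noise.

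The whole table was tested in R 4.3.3 with edgeR 4.0.16 (TMM, filterByExpr, robust quasi-likelihood test, Benjamini-Hochberg adjustment over 14774 genes), with no covariate. TPM used the gene lengths of the table. Results were recomputed under 15 other settings, among them DESeq2 1.42.0 and limma 3.58.1 (voom), and 2 chosen after seeing the data. The members and lists were chosen with earlier results of these data known. Named were the 10 members, Hint2, the 3 genes with the smallest p and that with the highest mean CPM over the 6 libraries in each partner group, the marker with the highest such mean in each list, and the 5 genes most like Gja1.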

Additional observations from a re-analysis of the deposited data

How the results depend on the processing

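All 17 alternatives kept the direction of 9 of the 10 junction genes. The exception was Jup, which was −0.0048 without NTG 2 and −0.0020 with DESeq2 and NTG 2 left out, and up to 0.19 without NTG 3. Members called were 0 in every alternative but DESeq2 with NTG 1 left out, which called 2. Members at an unadjusted p under 0.05 were 1 in the main test (18.6% of all genes), 2 with the length offset (18.2%), 2 with the replicate block (21.9%), 2 with both (21.5%), 0 to 3 with 1 library left out (10.4% without NTG 2 to 27% without NTG 1), and 4 and 0 with DESeq2 and NTG 1 or NTG 2 left out (25.3% and 9.51%). Partner genes at that p were 10, with 7 to 19 when 1 library was left out and 21 by DESeq2 with NTG 1 left out, beside the same shares of all genes. The 19, found without NTG 1, include Gjb5, which passed the low-count filter only through NTG 2 and NTG 3. Over all genes, edgeR called 0 higher and 0 lower with 2747 at an unadjusted p under 0.05. The numbers were 116 and 116 with no low-count filter, 228 and 355 by DESeq2, 84 and 147 with the replicate block, and 117 and 139 with block and length offset. With 1 library left out they ran from 0 to 404 and from 0 to 432, both highest without NTG 1, and DESeq2 called 896 and 877 without NTG 1 and 47 and 76 without NTG 2. The cause was not tested. Scaling by library size alone moved the median of all genes to −0.093 and the junction genes with it (Gja1 to −0.23, Dsc2 to 0.35). The length offset brought the 6 genes fitted lower to between −0.15 (Gja5) and −0.010 (Cdh2). Deviations of same-numbered libraries correlated at 0.081, 0.17 and −0.25, and those of differently numbered libraries from −0.25 to 0.17. With 3 libraries a group, these values cannot tell whether the numbers pair the hearts. The paper states no pairing, so the replicate block is not read as a paired result. Counting error weighs most on Gja5, at 207 to 328 counts a library.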
